A study of Sus scrofa with 21 samples.

Results

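Whole blood RNA was compared between DD pigs, minipigs of an inbred herd that is homozygous at the SLA locus (the major histocompatibility complex of the pig, SLAdd), and LW pigs, the commercial Large White breed that served as the control. All pigs were 60 days old and ate a standard diet without restriction. There were 10 DD pigs from 5 litters and 11 LW pigs from 6 litters, with 1 one-colour Agilent array per pig on 3 chips that each carried both breeds. Breed, inbreeding and SLA haplotype go together in this design and cannot be told apart. The genes described here are the spliceosome and RNA binding factors, taken as every array name that begins with SF3A, SF3B, SNRP, SNRNP, SRSF, SFRS, HNRNP, HNRP, PRPF, U2AF, SRPK or CWC, or with LSM and a digit. These were 82 names on 192 of the 60305 probes, and they became 79 genes once SFRS1, SFRS2 and SFRS6 were joined to SRSF1, SRSF2 and SRSF6. A filter on dim probes kept 78 of the 79 among 35533 features in all, and the one removed, SNRNP48, was not well above background on any array. The name SFRS3, SFRS9 or SFRS13A, an older name of SRSF3, SRSF9 or SRSF10, stayed apart because the reference table did not join it.

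The spliceosome removes introns from pre-mRNA. It is built from small nuclear ribonucleoproteins (snRNPs), each an RNA with a ring of Sm or LSM proteins and its own subunits. U1 binds the 5′ splice site, U2AF and the U2 snRNP with its SF3A and SF3B subunits bind the 3′ splice site and the branch point, and the U4/U6.U5 tri-snRNP then joins and is remodelled into the catalytic machine by the PRP19-related and CWC proteins. SR proteins, which SRPK kinases phosphorylate, and hnRNPs bind the pre-mRNA itself and shift the choice of splice sites. These are genes of all nucleated cells, and in whole blood their signal comes from leukocytes and young red cells together.

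What an array measured for a gene depends on the probe, so probes of the members with the strongest differences are shown first. The array named 6 probes for SRPK3, a kinase of SR proteins known mainly from muscle, whose gene lies on chromosome X from 124524102 to 124528607 in the RefSeq annotation of Sscrofa11.1. The capitals in the first pair below mark the 40 bases that both share. The next 3 lines are the last 30 bases of 3 probes that start at bases 1934, 1935 and 1936 of the transcript and overlap by 53 to 57 bases, with the polyadenylation signal in capitals.
SRPK3 probe at base 654: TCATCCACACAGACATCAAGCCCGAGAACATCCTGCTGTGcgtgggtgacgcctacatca
SRPK3 probe with human accession: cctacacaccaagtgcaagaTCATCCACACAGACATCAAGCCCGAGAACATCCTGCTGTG
SRPK3 probe at base 1934, end: ttcttttcttAATAAAgtgtgacccaaaaa
SRPK3 probe at base 1935, end: tcttttcttAATAAAgtgtgacccgaaaca
SRPK3 probe at base 1936, end: cttttcttAATAAAgtgtgacccgaaaaaa

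For SNRPG, the member with the lowest log2 fold change (FC), a single probe was available. In the same annotation SNRPG lies on chromosome 3 from 72198722 to 72208053, and CWC15 on chromosome 9 from 27035501 to 27047280. CWC15 had a pair of probes that gave different values, and the one with the smaller difference is shown.
SNRPG probe: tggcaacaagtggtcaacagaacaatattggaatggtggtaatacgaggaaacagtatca
CWC15 probe: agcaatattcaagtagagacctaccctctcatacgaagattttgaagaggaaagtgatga

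The next 5 probes were written on the opposite strand to the others. Their complements were recognised as the coding sequence of the gene from general knowledge of these proteins, and this was not checked against a transcript here. The capitals in the SNRNP27 probe mark 17 bases whose complement lies in another probe of the array, and those in the U2AF2 and SNRPF probes mark the complement of the start codon. Labelled cRNA pairs with probes that have the sense of the mRNA, so what these 5 probes measured is uncertain.
HNRNPA2B1 probe: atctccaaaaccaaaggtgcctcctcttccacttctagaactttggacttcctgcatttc
SNRNP27 probe: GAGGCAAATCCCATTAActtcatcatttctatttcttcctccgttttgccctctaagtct
U2AF2 probe: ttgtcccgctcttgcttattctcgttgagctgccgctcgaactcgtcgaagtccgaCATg
SNRPF probe: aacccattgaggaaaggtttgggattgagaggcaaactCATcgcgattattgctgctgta
PRPF4B probe: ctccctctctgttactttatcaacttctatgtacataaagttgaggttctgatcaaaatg

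A last probe carried the name PRPF3 but shared 59 bases, in capitals, with a probe named RPS12, a ribosomal protein gene.
PRPF3-named probe: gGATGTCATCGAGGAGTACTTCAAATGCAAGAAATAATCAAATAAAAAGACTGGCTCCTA

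Of the 78 genes, 68 had a log2 FC (DD minus LW) below 0, as did 19478 of all 35533 features. Most of the 68 differed by a small amount, and the 95% intervals of 38 genes covered 0. The sign was less one-sided in other settings, with 58 of 78 below 0 without chip 3 and 42 of 78 with array brightness in the model. With all chips and no brightness term, the median log2 FC was -0.23 against -0.04 over all 35533 features. In limma with Benjamini-Hochberg adjustment over all features, 18 members (23.1%) had an adjusted p below 0.05 and were lower in DD pigs, where 9.57% of all features were. On the other side, 3 members (3.85%) were called higher, where 11.4% of all features were. The genes that were called lower had log2 FC between -0.94 and -0.29. Values are log2 intensities after the authors' quantile normalization, and blood is a mixture, so fewer cells of a type and less RNA per cell cannot be told apart.

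The size of the shift differed between the chips, and so did the brightness of the arrays. The median breed difference of the 78 genes went from -0.03 (chip 1) through -0.19 (chip 2) to -0.51 (chip 3), where all features had medians of 0.00, -0.02 and -0.10. DD arrays were dimmer than LW arrays. Brightness, taken as the 75th percentile of an array's processed signals (log2), was 7.53 ± 0.54 for the DD arrays (SD, n = 10) and 8.22 ± 0.38 for the LW arrays (SD, n = 11). By chip, the DD and LW means of brightness were 7.95 and 8.02 (chip 1), 7.55 and 8.31 (chip 2), and 7.09 and 8.36 (chip 3). With brightness as a covariate, the median log2 FC of the members was -0.01 and the calls were 2 lower (CWC15 and LSM3) and 1 higher (SRPK3). Without chip 3 the median was -0.11 and the calls were 1 lower (CWC15) and 1 higher (SRPK3). Calls fell across the whole array in both settings. Of all features, 1.23% were called lower with brightness and 0.86% without chip 3, against 9.57% in the main fit. Features called higher numbered 343 and 229, against 4045. Brightness and breed overlap too much in these arrays for their parts to be told apart, and every count below is to be read with these values.

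**Figure D1:**
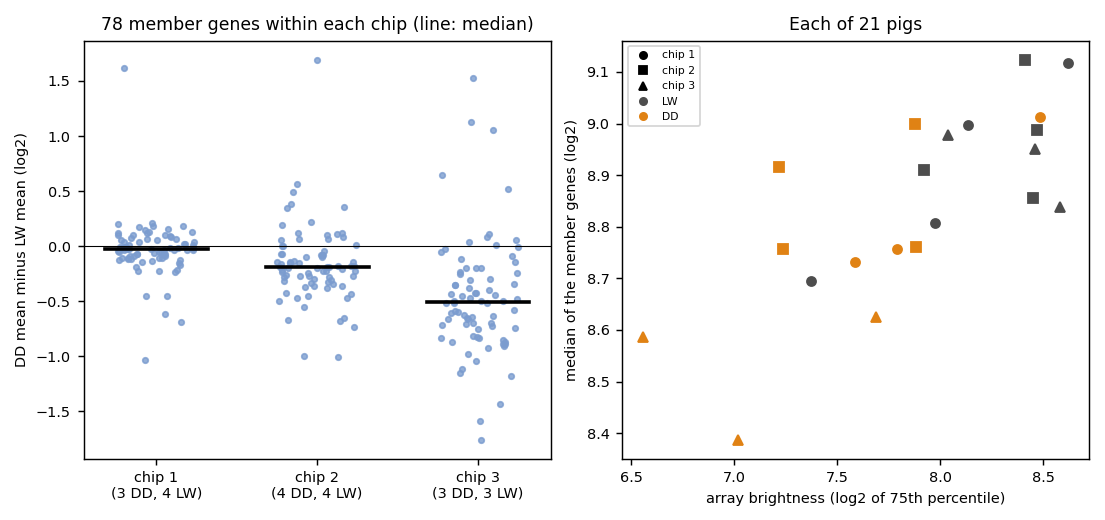
Left, the difference of breed means (log2) of each of the 78 member genes on each chip, with the median as a line; the medians run from -0.03 on chip 1 to -0.51 on chip 3. Right, each of the 21 pigs by the brightness of its array (log2 scale) and the median log2 value of its 78 member genes; the 3 DD pigs of chip 3 have the 3 lowest medians.

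Markers of blood cell types were measured beside the members. Over all features, 9.57% were called lower and 11.4% higher, with a median log2 FC of -0.04. Of 8 T cell markers tested, 3 were called lower. Their median log2 FC was -0.29, with a log2 summed level of 12.3 to 13.5 in DD pigs and 12.9 to 13.8 in LW pigs. Of 5 erythroid markers, 2 were called higher, and the summed level ran from 18.0 to 19.1 in DD pigs and from 17.7 to 19.2 in LW pigs. The erythroid median was 0.31. A single monocyte marker of 6 (median 0.06) and a single platelet marker of 5 (median -0.31) were called lower. No natural killer marker of 6 (median -0.31), B cell marker of 5 (median 0.10) or granulocyte marker of 6 (median 0.03) was called. The part of cell composition in the splicing factor values was not tested.

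**Figure D2:**
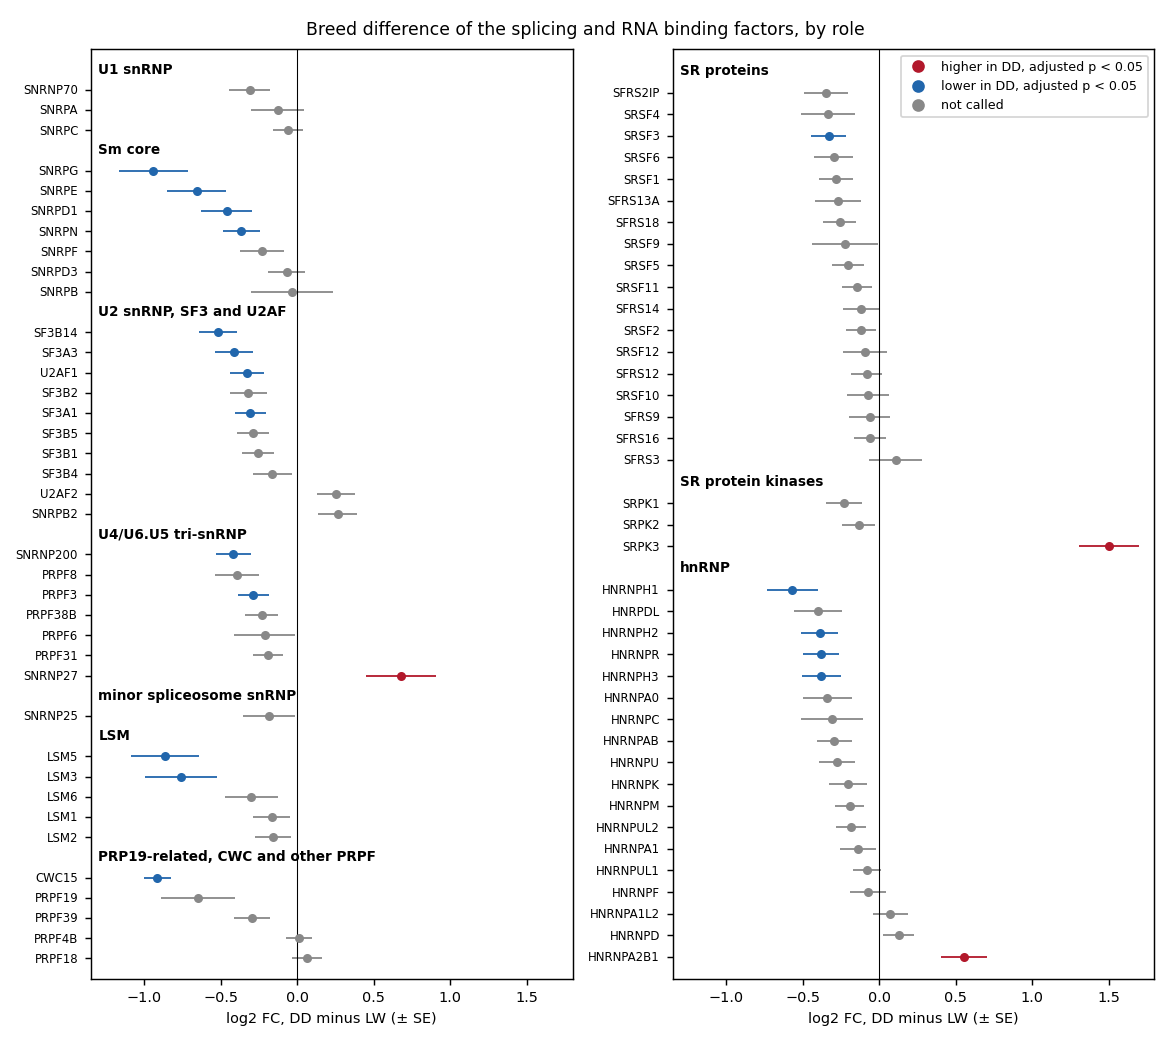
The log2 FC (DD minus LW, x axis, bars ± SE) of 77 of the 78 member genes, grouped by their role and coloured by the limma call at an adjusted p of 0.05. Most points lie left of 0, and SRPK3, at 1.50, lies far right of the others.

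Among the U1 proteins, none of the 3 genes was called. SNRNP70, the U1 subunit that contacts SR proteins, had a log2 FC of -0.31 ± 0.14 (SE, adjusted p = 0.10). SNRPA and SNRPC, the other U1-specific subunits, had -0.13 ± 0.18 and -0.06 ± 0.10, with 95% intervals of -0.47 to 0.21 and -0.26 to 0.13.

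The Sm proteins, which form the ring around the U1, U2, U4 and U5 RNAs, included the member with the lowest log2 FC. All 7 genes tested had a log2 FC below 0, and 4 were called (57.1%, against 9.57% of all features called lower). The log2 values of SNRPG had a lowest, median and highest of 8.12, 9.30 and 10.13 in DD pigs and of 9.32, 10.11 and 10.53 in LW pigs. Of the DD pigs, 5 were below every LW pig, and 5 LW pigs were above every DD pig. The log2 FC was -0.94 ± 0.23 (SE), 1.92-fold lower in DD pigs (limma adjusted p = 0.010). The 3 probes of SNRPE all gave about the same difference, from -0.66 to -0.65. SNRPE ran from 9.25 through 10.03 to 11.01 in DD pigs and from 10.11 through 10.70 to 11.30 in LW pigs, a log2 FC of -0.66 ± 0.19 (adjusted p = 0.026). SNRPD1 (-0.46 ± 0.16, adjusted p = 0.049) and SNRPN (-0.37 ± 0.12, adjusted p = 0.039), the imprinted copy that replaces SNRPB in neurons, were called lower too, and the pair of SNRPN probes gave -0.37 each. SNRPB had the widest spread of the members in DD pigs, and its log2 FC was -0.04 ± 0.27. It ran from 5.50 to 8.17 in DD pigs and from 5.85 to 8.13 in LW pigs. On chip 2, DD pigs 13 and 16 and LW pig 15 had 7.23, 5.50 and 6.48, and the other pigs 7.67 to 8.17. In HNRNPC the same pigs had 7.59, 7.48 and 7.53, and the others of chip 2 had 8.44 to 9.18. The chip term cannot take up a step within a chip, and its cause was not tested. SNRPD3, with 9 probes of which several overlap, had -0.07 ± 0.12, its probes lying between -0.30 and 0.27.

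LSM proteins form the ring of U6 RNA, and the LSM1 ring acts in mRNA decay in the cytoplasm. All 5 genes tested had values below 0 and 2 were called (40.0%, against 9.57% of all features called lower). LSM5 ran from 6.78 through 7.73 to 8.73 in DD pigs and from 7.89 through 8.58 to 9.22 in LW pigs, so that 5 DD pigs were below every LW pig. Its log2 FC was -0.87 ± 0.22 (adjusted p = 0.015), with chip differences of -0.45, -0.55 and -1.76. LSM3 had a log2 FC of -0.76 ± 0.23 (adjusted p = 0.029), and here the difference was largest on chip 1 (-1.04) and smallest on chip 3 (-0.59). It rested on 1 of its 2 probes, which gave -1.23 ± 0.28 (adjusted p = 0.0059), while the other gave -0.29 ± 0.22 (adjusted p = 0.36). LSM2, whose gene lies within the major histocompatibility complex of mammals and thus in the region for which DD pigs are homozygous, had a log2 FC of -0.16 ± 0.12 (95% interval -0.39 to 0.08). A probe of the opposite strand that covers 53 bases of an LSM2 probe was well above background on 13 of the 21 arrays and had a log2 FC of -0.30 ± 0.15 (adjusted p = 0.15).

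Of the 10 genes of the U2 snRNP, SF3 and U2AF, 4 were called lower (40.0%, against 9.57% of all features) and none higher. SF3B14, the branch point protein now called SF3B6, had a log2 FC of -0.52 ± 0.12 (adjusted p = 0.0099). Its values ran from 7.93 through 8.45 to 9.01 in DD pigs and from 8.66 through 9.00 to 9.31 in LW pigs, with 7 DD pigs below every LW pig. SF3A1 and SF3A3, subunits of SF3A, had -0.31 ± 0.10 (adjusted p = 0.035) and -0.41 ± 0.13 (adjusted p = 0.029). The call of SF3A3 rests on its single probe under the capitalised name: with a probe named sf3a3 averaged in, an alternative chosen after seeing the data, the log2 FC was 0.14 (adjusted p = 0.31). U2AF1, the small subunit that reads the AG of the 3′ splice site, had -0.33 ± 0.11 (adjusted p = 0.037). This call was lost without the sow block (adjusted p = 0.055) and on litter means (adjusted p = 0.065). U2AF2, its large partner, measured by an opposite-strand probe alone, had 0.25 ± 0.12 (adjusted p = 0.14). SF3B1, the branch point subunit that is often mutated in blood cancers, had -0.26 ± 0.11 over 16 probes (adjusted p = 0.084). SF3B2 and SF3B5 had -0.32 and -0.29 (adjusted p = 0.058 and 0.051), and SNRPB2, a U2-specific protein, had 0.26 ± 0.13 (adjusted p = 0.14).

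In the tri-snRNP, 2 of 7 genes were called lower and 1 higher (28.6% and 14.3%, against 9.57% and 11.4% of all features). SNRNP200, the helicase that unwinds U4 from U6, ran from 9.78 through 10.16 to 10.61 in DD pigs and from 10.10 through 10.68 to 10.87 in LW pigs. Its log2 FC was -0.42 ± 0.12 (adjusted p = 0.021), with chip differences of -0.01, -0.43 and -0.87. PRPF8, the large protein at the heart of the U5 snRNP, had -0.39 ± 0.14 (adjusted p = 0.051) and chip differences of 0.12, -0.43 and -0.92. PRPF31, a U4/U6 protein, had -0.19 ± 0.10 (adjusted p = 0.17). The call of PRPF3 (-0.29 ± 0.10, adjusted p = 0.045) included the probe that matches RPS12. That probe gave -0.37 and 3 probes named RPS12 gave between -0.39 and -0.36, and without it PRPF3 had -0.26 ± 0.11 (adjusted p = 0.080).

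SNRNP27, the tri-snRNP protein called higher, was measured by an opposite-strand probe. Its values ran from 6.77 through 7.89 to 8.80 in DD pigs and from 6.11 through 6.97 to 9.19 in LW pigs, and the highest value of all belonged to an LW pig. The log2 FC was 0.68 ± 0.23 (adjusted p = 0.041), with chip differences of 0.06, 0.56 and 1.53. Once brightness entered the model as a covariate, the value was -0.10 (adjusted p = 0.95).

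CWC15, a small protein of the PRP19-related complex, was the member with the clearest separation of the breeds. Its log2 values ran from 7.15 through 7.39 to 7.85 in DD pigs and from 8.18 through 8.31 to 8.55 in LW pigs. Every DD pig was below every LW pig, which held for 0.386% of all features and for no other member. The log2 FC was -0.91 ± 0.09 (adjusted p = 5.73e-07), and the chip differences lay between -1.04 and -0.69. The 2 probes did not give the same answer. The one designed on a pig cDNA ran from 7.38 through 7.80 to 8.37 in DD pigs and from 8.86 through 9.59 to 9.93 in LW pigs, with a log2 FC of -1.61 ± 0.13 (adjusted p = 2.78e-08). The probe shown above ran from 6.57 through 7.07 to 7.46 in DD pigs and from 6.82 through 7.24 to 7.76 in LW pigs, with -0.21 ± 0.10 (adjusted p = 0.11). PRPF19, the ubiquitin ligase that gives the complex its name, had -0.65 ± 0.24 (adjusted p = 0.060) with 0.20 on chip 1 and -1.15 on chip 3, and its brighter probe was well above background on 6 DD and 10 LW arrays. PRPF4B, a kinase of the tri-snRNP, had 0.01 ± 0.09 as a mean of probes that disagreed. The opposite-strand probe gave 0.66 ± 0.20 (adjusted p = 0.026), the others -0.30 ± 0.10 (adjusted p = 0.032) and -0.32 ± 0.11 (adjusted p = 0.042), and without the former the gene had -0.31 ± 0.09 (adjusted p = 0.027).

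**Figure D3:**
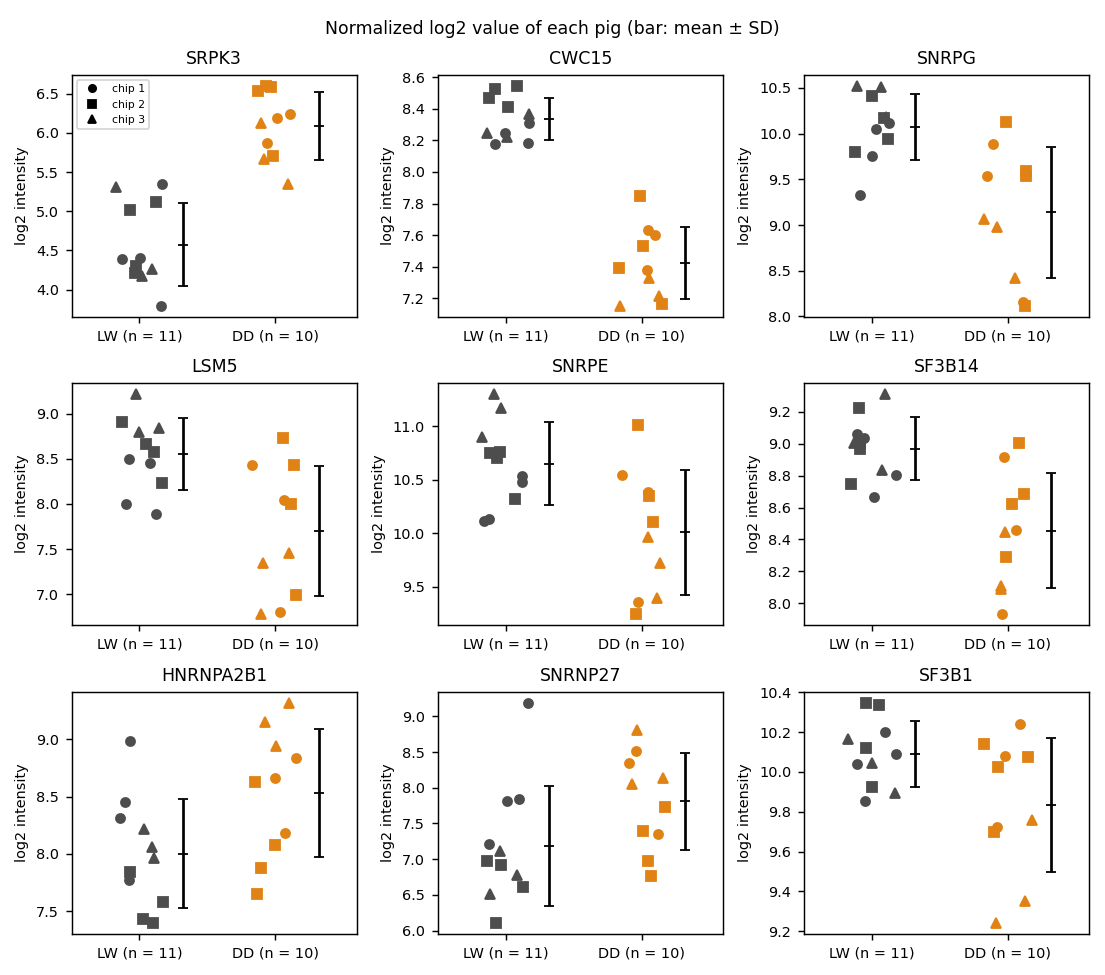
The normalized log2 value (y axis) of 9 members in each LW and DD pig, with symbols for the chip and the mean ± SD of each breed beside the points. CWC15 is the panel in which the breeds do not overlap, and in SF3B1 the 2 lowest pigs are DD pigs of chip 3.

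SR proteins bind exonic enhancers through an RNA recognition motif and recruit U1 and U2AF through their arginine and serine repeats. The group counted here is every SRSF or SFRS name, so it also holds names such as SFRS18 (now PNISR) and SFRS2IP that this description may not cover. It counts SFRS3, SFRS9 and SFRS13A apart from SRSF3, SRSF9 and SRSF10. Of the 18 names, 17 had a log2 FC below 0, but only SRSF3 was called (5.56%, against 9.57% of all features called lower). SRSF3 ran from 9.59 through 10.10 to 10.73 in DD pigs and from 9.97 through 10.54 to 10.70 in LW pigs, so that the highest pig was a DD pig. Its log2 FC was -0.33 ± 0.11 (adjusted p = 0.046), and the call was lost without the sow block (adjusted p = 0.063) and on litter means (adjusted p = 0.064). SRSF1, the founding member of the family, had -0.28 ± 0.11 (adjusted p = 0.075) and SRSF6 -0.30 ± 0.12 (adjusted p = 0.089), each over 5 probes. SRSF5 had -0.20 ± 0.11 (adjusted p = 0.17). SRSF2, which like SF3B1 and U2AF1 is mutated in blood cancers, had -0.12 ± 0.10, with a 95% interval of -0.31 to 0.08. The dim probe named SFRS3 passed the background flag on 0 LW arrays and 1 DD array, with measured means of 4.26 in DD and 4.17 in LW pigs (adjusted p = 0.68).

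Of the SR protein kinases, SRPK1 and SRPK2, the widely expressed ones, had log2 FC of -0.23 ± 0.12 (adjusted p = 0.16) and -0.13 ± 0.11 (adjusted p = 0.39). SRPK3 was the member with the highest log2 FC. Its values, a mean of 5 probes, ran from 5.34 through 6.16 to 6.60 in DD pigs and from 3.80 through 4.39 to 5.35 in LW pigs, and 9 of the 10 DD pigs were above every LW pig. The log2 FC of this mean was 1.50 ± 0.19 (adjusted p = 3.06e-05), and no fold is given because it averages probes with and without a signal well above background. By chip it was 1.62, 1.69 and 1.13.

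The difference of SRPK3 lay in the 3 overlapping probes at the 3′ end. These were well above background on all 10 DD arrays and on 4 of the 11 LW arrays, and gave log2 FC of 2.33 ± 0.28, 2.52 ± 0.30 and 2.59 ± 0.29 (adjusted p = 1.54e-05, 1.40e-05 and 5.17e-06). At the probe that starts at base 1935, DD pigs ran from 6.57 through 7.38 to 7.71 and LW pigs from 3.24 through 4.31 to 5.99. No DD pig overlapped with an LW pig on any of these 3 probes, as on 0.389% of all kept probes. The probe at base 654 was well above background on 0 DD and 2 LW arrays, with a log2 FC of 0.18 ± 0.18 (adjusted p = 0.50). The probe with a human accession was not well above background on any array and gave -0.11 ± 0.16. The probe at base 1277 was not well above background on any array and was removed by the filter. The overlap of the 3 probes makes them repeated readings of a single site rather than independent evidence.

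**Figure D4:**
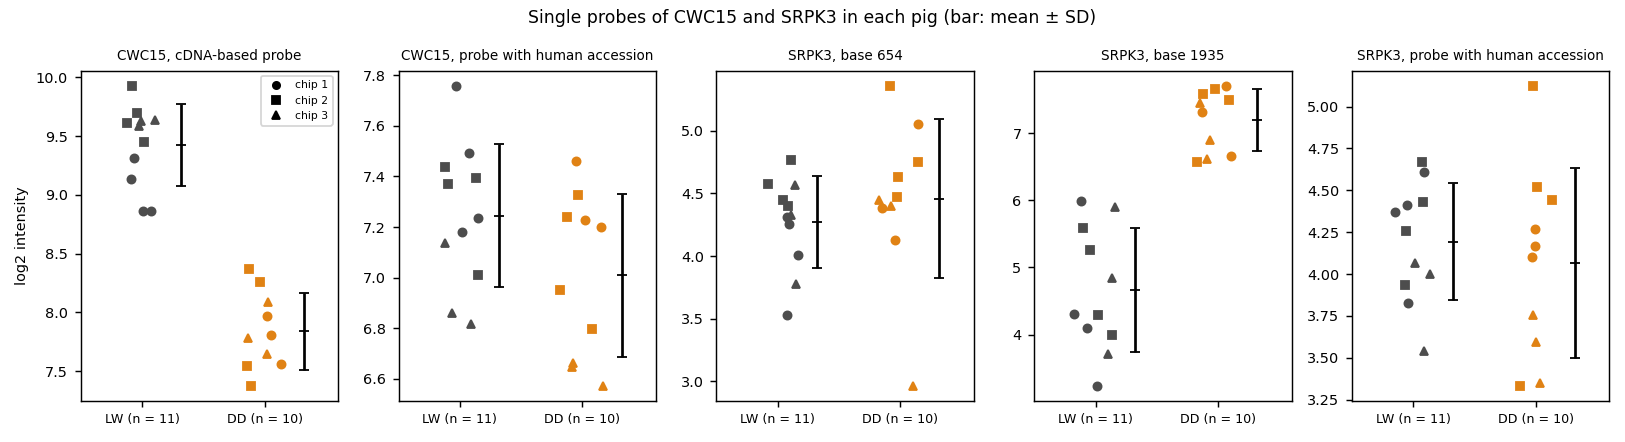
The log2 intensity (y axis) of single probes of CWC15 and SRPK3 in each LW and DD pig, with symbols for the chip and the mean ± SD beside the points. The breeds separate on the cDNA-based probe of CWC15 and on the SRPK3 probe at base 1935, and overlap on the other 3 probes.

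The hnRNPs package pre-mRNA and often act against SR proteins. Of 18 genes, 4 were called lower and 1 higher (22.2% and 5.56%, against 9.57% and 11.4% of all features). The H group, which binds runs of G, made up most of the former: HNRNPH1 had a log2 FC of -0.57 ± 0.16 (adjusted p = 0.024), HNRNPH2 -0.39 ± 0.12 (adjusted p = 0.031) and HNRNPH3 -0.38 ± 0.13 (adjusted p = 0.041). HNRNPH1 ran from 11.32 through 12.01 to 12.63 in DD pigs and from 11.89 through 12.56 to 12.87 in LW pigs. HNRNPH3 was not lower on chip 1 (0.02), and 6 of its 7 probes gave between -0.57 and -0.35. The description of the HNRNPH2 probe also names a ribosomal protein gene, RPL36A, so its target is uncertain. HNRNPR had -0.38 ± 0.12 (adjusted p = 0.028), and both of its probes were called lower (-0.41 and -0.35).

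HNRNPA2B1, which packages transcripts and sorts small RNAs, was called higher, again with an opposite-strand probe alone. It ran from 7.65 through 8.65 to 9.32 in DD pigs and from 7.40 through 7.96 to 8.98 in LW pigs, a log2 FC of 0.56 ± 0.15 (adjusted p = 0.019) with 0.18, 0.50 and 1.06 on the 3 chips. Of the 5 opposite-strand probes, 4 had a log2 FC above 0 and 3 were called higher, among 6 called higher of 190 kept member probes. Without these probes and the one that matches RPS12, an alternative chosen after seeing the data, SRPK3 was the 1 member left among those called higher, and 18 were called lower. HNRNPA1 (-0.14 ± 0.12), whose probes also match an HNRNPA1-like copy, HNRNPK (-0.20 ± 0.12), HNRNPU (-0.28 ± 0.12), HNRNPC (-0.31 ± 0.20) and HNRNPD (0.13 ± 0.10) were not called, with 95% intervals of -0.37 to 0.09, -0.44 to 0.04, -0.51 to -0.04, -0.71 to 0.09 and -0.07 to 0.33. HNRNPD rested on a single probe with a mean level of 17.3, the highest of the members, whose median level was 8.72. What this probe measured was not checked. HNRPDL (now HNRNPDL) passed the background flag on 0 DD and 5 LW arrays. Its measured means were 4.23 in DD and 4.62 in LW pigs (adjusted p = 0.070), and no fold is given because most of these arrays hold no signal well above background.

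Probes of one gene mostly gave one direction. Of the 190 kept member probes, 167 had a log2 FC below 0, 33 were called lower and 6 higher. Of all 45228 kept probes, 4853 were called lower and 4955 higher. Both directions together made up 20.5% of the member probes and 21.7% of all kept probes. All kept probes had one sign in 26 of the 35 genes with more than 1. Because most member probes were below 0 and some overlap, shared signs are common in any case, and the agreement was not tested. Where the array carried the same 60 bases on a pair of probes, which held for 10 pairs, the paired log2 FC differed by 0.01 to 0.11. Along SF3B1, the probes starting at bases 441, 1478 and 2612 gave -0.15, -0.15 and -0.07, and the 10 that start between bases 3423 and 4165 gave -0.46 to -0.24. The probe at base 4547, placed on another transcript record, gave 0.27 ± 0.11 (adjusted p = 0.076). A single SF3B1 probe, at base 4016, was called (-0.42 ± 0.15, adjusted p = 0.045). The 7 probes of SFRS18 (now PNISR) stayed between -0.33 and -0.18 along the transcript.

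**Figure D5:**
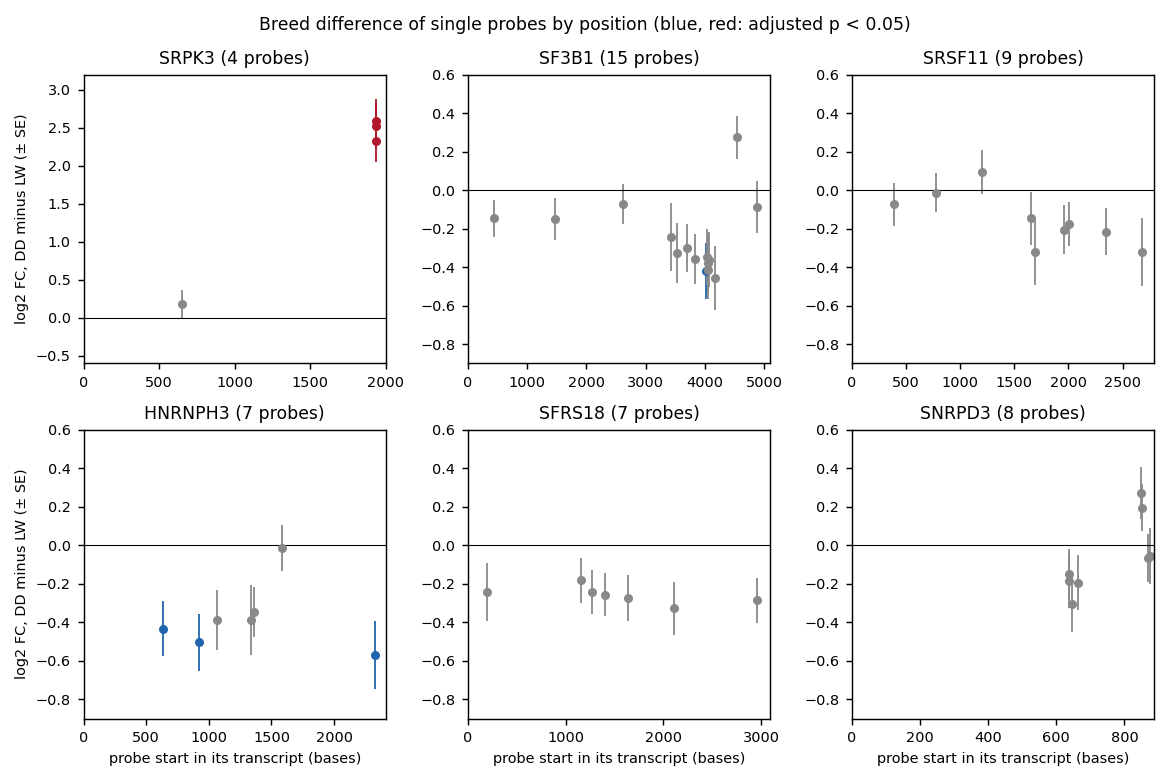
The log2 FC (DD minus LW, y axis, bars ± SE) of single probes by their start in the transcript (x axis, bases) for 6 members; the y axis of SRPK3 has its own range. SRPK3 rises to 2.59 at its 3′ end, and the other genes stay between -0.57 and 0.27.

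The members varied less between pigs than the average feature did. After removal of the chip effect, the median SD over pigs of the 78 genes was 0.29 in DD and 0.25 in LW pigs, where all features had 0.37 and 0.31. The members are brighter, with a median level of 8.72 against 6.32, and the part of brightness in this was not tested. CWC15 had the smallest SD of the members in LW pigs (0.10), and SNRPB the largest in DD pigs (0.73).

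Most other genes of the pathway also had a log2 FC below 0, as did 19478 of all 35533 features. In these lists 16.3% to 27.3% were called, against 20.9% of all features, and 11.4% to 27.3% were called lower, against 9.57%. Of 44 further spliceosome components, 37 had a log2 FC below 0, 5 were called lower and 3 higher. The calls were 11.4% lower and 6.82% higher, against 9.57% and 11.4% of all features. MFAP1, a tri-snRNP partner, had -0.72 ± 0.11 over 4 probes (adjusted p = 1.42e-04), and SMNDC1, a splicing factor of the SMN family, had 0.72 ± 0.14 (adjusted p = 0.0017). Of 16 genes of the exon junction complex, cap binding and mRNA export, all had values below 0 and 3 were called (18.8%). Of 11 genes of snRNP assembly, 3 were called lower, among them SMN1, the core of the complex that loads Sm rings (-0.52 ± 0.15, adjusted p = 0.021), and COIL, the scaffold of Cajal bodies (-0.64 ± 0.14, adjusted p = 0.0057). Of 43 other splicing regulators, 5 were called lower and 2 higher (11.6% and 4.65%, against 9.57% and 11.4% of all features). CELF2, a regulator of splicing in T cells, had the lowest value of all these lists. It ran from 9.93 through 10.55 to 10.99 in DD pigs and from 11.70 through 12.09 to 12.41 in LW pigs. The log2 FC was -1.52 ± 0.11 (adjusted p = 9.06e-09) on a single probe. The breeds did not overlap, which held for 0.386% of all features.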

How the data were processed

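Cy3-labelled cRNA of 21 pigs was scanned on one-colour Agilent arrays. Per the labels, Agilent Feature Extraction 10.7.3.1 gave the deposited spot intensity, local background and processed intensity of each probe, with flags for a signal well above background. The authors removed 3 outlier arrays, corrected the background with normexp, and deposited a matrix of quantile-normalized log2 values, which was used here. The authors updated the array annotation on the pig genome Sscrofa11.1. Their probe mapping was not used here, and gene coordinates are those of RefSeq for that build.

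Control spots were left out, the 25% of probes with the lowest mean were removed, and the kept probes of a gene were averaged. Array names were joined to current symbols through exact RefSeq symbols and unique synonyms (3 member names). Breed was tested with limma 3.58.1 (R 4.3.3), with chip as a fixed effect, the sow as a random block (duplicateCorrelation, consensus correlation -0.11), eBayes, and Benjamini-Hochberg adjustment over all 35533 features (7444 called). Of the pigs, 20 had a litter mate on the arrays. The negative correlation treats litter mates as less alike than other pigs. Without the sow block, 5097 features were called, and 11 members were called lower in place of 18. The number of arrays limits the precision. Intervals are the log2 FC ± 1.96 SE. On simulated data with these chips, 100 genes were changed by 0.5 and 100 by 1 on the log2 scale, among 35533. The model recovered 20.0% of the former and 75.0% of the latter. The simulation held no litter or brightness effect. With so few changed genes the adjustment is stricter than in the data, where 7444 features were called, so these rates do not carry over to the fit above.

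Members, roles and lists were chosen with earlier results of these data known. Named genes are the members past an adjusted p of 0.05 with one sign on all 3 chips, up to 12 in each direction, a set of well-known members whatever their values, and others chosen after their values were seen. SRSF7, HNRNPL, HNRNPLL and LSM14A had no probe under the capitalised name. A further 33 probes matched only without regard to case and were used in an alternative. Alternatives were other background corrections and scalings, filters, probe and name rules, model terms, each chip and each pig left out. A single member gene enters the counts but is not reported here by name.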

Additional observations from a re-analysis of the deposited data

Results flagged for a closer look

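In 2 of the 78 member genes, a single DD pig lay far from the other 9, its gap to the next pig over the range of the group passing Dixon's 95% critical value for 10 (0.466). Chance flags about 1 in 20 groups, and over all features 8.29% were flagged, against 2.56% of the members. In SFRS18 the gap was 0.513 of the range, with DD pig 21 at 8.63 and the other DD pigs from 9.21 to 9.77. In SRSF5 the gap was 0.500 of the range, with the same pig at 9.97 and the others from 10.5 to 11.1. This pig had the dimmest array of all (6.56), on chip 3. The groups of 11 LW pigs were not tested in this way.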

How the results depend on the processing

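SRPK3 and CWC15 were called in all 38 settings, with a log2 FC of 0.83 to 2.59 and of -1.61 to -0.79. SNRPG, LSM5 and SF3B14 were called in 36 of 38, but neither without chip 3 nor with brightness as a covariate. Of the 38 settings, 21 left out 1 pig each. The other calls were lost in more settings than these, and the cause was not tested. Of all features (7444), 779 were called with brightness as a covariate, 536 without chip 3, 1925 without a chip term, 4662 without the filter on dim probes and 5097 without the sow block. Leaving out 1 pig at a time gave 2254 (without LW pig 18) to 11723 (without DD pig 6). Members called lower (18) numbered 2 with brightness, 1 without chip 3, 5 without a chip term, 10 without the filter, 11 without the sow block and 8 with the processed signal scaled to its 75th percentile. The share of all features called lower in these settings was 1.23%, 0.86%, 3.60%, 4.60%, 6.79% and 6.32%, against 9.57% in the main fit. On litter means 17 members were called lower (8.96% of all features), without PRPF3, SRSF3 and U2AF1, which were also lost without the sow block. With 1 pig left out the members called lower ran from 4 (LW pig 18) to 33 (DD pig 6), with 5 without DD pig 21 or 23, 7 without LW pig 22, 9 without DD pig 10 or LW pig 5, and 10 without DD pig 1, DD pig 19 or LW pig 12. Of all features, 3.74% were called lower without LW pig 18 and 16.0% without DD pig 6. For the other pigs named here the share was 4.96% to 7.61%. Members called higher (3) numbered 1 with brightness, without chip 3, without a chip term or without the doubtful probes, 5 with case ignored, and 1 to 3 with 1 pig left out. Of all features, 4045 were called higher in the main fit, 343 with brightness, 229 without chip 3 and 647 without a chip term. They numbered 4043 without the doubtful probes, 3931 with case ignored and 924 to 6022 with 1 pig left out. The median member log2 FC was -0.011 with brightness and -0.28 to -0.18 with 1 pig left out. The 75th percentile scaling moved the median of all features from -0.04 to 0.06 and that of the members to -0.17, and 69.3% of its calls were higher, against 54.3%.

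Members with a log2 FC below 0 (68) numbered 42 of 78 with brightness and 58 without chip 3. Among the genes named by rule, brightness turned the sign of HNRNPA1 (0.10), HNRNPC (0.026), HNRNPK (0.16), PRPF31 (0.0043), PRPF8 (0.024), SF3B1 (0.027), SNRNP27 (-0.10), SNRNP70 (0.033), SNRPB (0.27), SNRPC (0.075), SRPK1 (0.048) and SRPK2 (0.020). Without chip 2 the sign turned for HNRNPD (-0.013) and SNRPB (0.0595), and with case ignored for SF3A3 (0.14). SNRPB ranged from -0.14 to 0.17 with 1 pig left out. No paired analysis was possible because the breeds share no replicate numbers.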

Other observations

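The names in lower or mixed case that the rule leaves out added 15 genes when case was ignored. Of these, LSM14A (-0.43 ± 0.11, adjusted p = 0.018) and SFRS15 (-0.31 ± 0.10, adjusted p = 0.037) were called lower, and SFRS5 (0.42 ± 0.13, adjusted p = 0.027) and SFRS8 (0.52 ± 0.17, adjusted p = 0.041) higher. SFRS5 is the older name of SRSF5, whose own probe had a log2 FC of -0.20, so the probes of this gene differed in sign.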
